A study of Canis lupus familiaris and Eptesicus fuscus and Equus caballus with 6 samples.

Results

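Tigger elements are DNA transposons of the Tc1/mariner superfamily, and their RNA was followed here in the mRNA libraries of adult testis from dog (Canis lupus familiaris), horse (Equus caballus) and the big brown bat (Eptesicus fuscus). A member was every repeat model that the dog and horse files class as TcMar-Tigger, and every bat model whose name starts with Tigger or MER44. This gave 88 of the 2452 models in the 3 files, of which 44 of 955 were in dog, 41 of 986 in horse and 3 of 511 in bat. Each species had 1 mRNA library from snap-frozen tissue, so no difference between species has a replicate check. Breed, number of animals and any treatment are not given in the labels. The files hold repeat models only, so the labelled tissue could not be checked against testis marker genes.

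A complete Tigger element carries terminal inverted repeats around a gene for a pogo-like transposase, the enzyme that cuts the element out and pastes it at a TA target site. Many of its relatives are short, internally deleted copies that keep the ends without the gene and could move only with a transposase supplied from elsewhere. In mammalian genomes the group is known mainly as old, immobile copies, of which many lie in introns and untranslated regions of host genes, and host proteins such as CENP-B and the TIGD family are related to its transposase. Names that start with MER (medium reiterated repeat) were given to repeats before their origin was known, and those classed here as Tigger are of the short kind.

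The models fell into 4 kinds by name and length. Tigger-named models of at least 1000 nt, called long here, numbered 12 in dog and 9 in horse and ran from 1073 nt to 3455 nt in dog and to 2673 nt in horse. Tigger-named models under 1000 nt numbered 18 and 16. MER-named models, all between 97 and 756 nt, numbered 11 and 12. The remaining 3 models in dog and 4 in horse had other names. Not every long model is a complete element, since the length limit was a working choice. The dog and horse files shared 39 Tigger models. Only the dog file held Tigger1, Tigger2, Tigger2f and the carnivore models Tigger1a_Car and Tigger2a_Car, and only the horse file held MER2B and Mariner-N1_EC.

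Levels are given in TPM, a transcript level per model length that the authors scaled to the same sum within each file, with the interval the authors deposited around it. Element reads numbered 103631 in dog and 174758 in horse, rebuilt from TPM and length, and 55904 expected counts in bat. Ribosomal RNA models took 51.2% of the TPM in dog and 47.7% in horse, whereas bat had no such models, which puts bat TPM on its own scale. Reads that match several models were shared out between the models of each file, which differ, and the part of this in any difference between files was not tested. In whole testis, fewer cells of a type and less RNA per cell cannot be told apart.

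Over all models of each file, Tigger elements made up a similar small share of element reads in dog and horse, and they were the leading group of DNA transposons in both. It came to 0.904% of element reads in dog (exact 95% interval 0.847 to 0.964%), and horse stood at 0.878% (0.835 to 0.923%). The ratio of horse to dog was 0.971 (0.894 to 1.054), an interval that includes equality and covers counting error only. The likeness holds for this measure alone: by summed TPM the shares were 0.405% in dog and 1.41% in horse, and over element models in both files 3.05% and 5.01% of reads. Of the reads on DNA transposons, Tigger models took 63.6% in dog (61.1 to 66.1%) and 59.4% in horse (57.5 to 61.3%). The hAT-Charlie group, the next in line, took 31.02% and 28.9%, with 456.8 and 747 reads against 937 and 1534 for Tigger. Other Tc/mariner groups were far lower: the 8 Tc2 models held 3 reads in dog and 67.7 in horse, and the Mariner and Pogo models were listed at 0 in both. The lead in dog rests on models that the horse file does not hold: over models in both files, Tigger took 18.4% of DNA transposon reads in dog and 49.5% in horse.

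Many members had no read, in shares near those of all element models. A read was found on 17 of 44 Tigger models in dog (38.6%) and on 24 of 41 in horse (58.5%). Over all DNA transposon models the same share was 23.4% in dog and 43.1% in horse, and over all element models it was 40.3% and 60.6%. At least 10 reads were reached by 9 Tigger models in dog and 14 in horse. The 4 leading models held 84.9% of Tigger reads in dog and 65.2% in horse, so Tigger reads were more concentrated in dog. This share was not computed for other classes, so it marks no trait of the group.

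**Figure D1:**
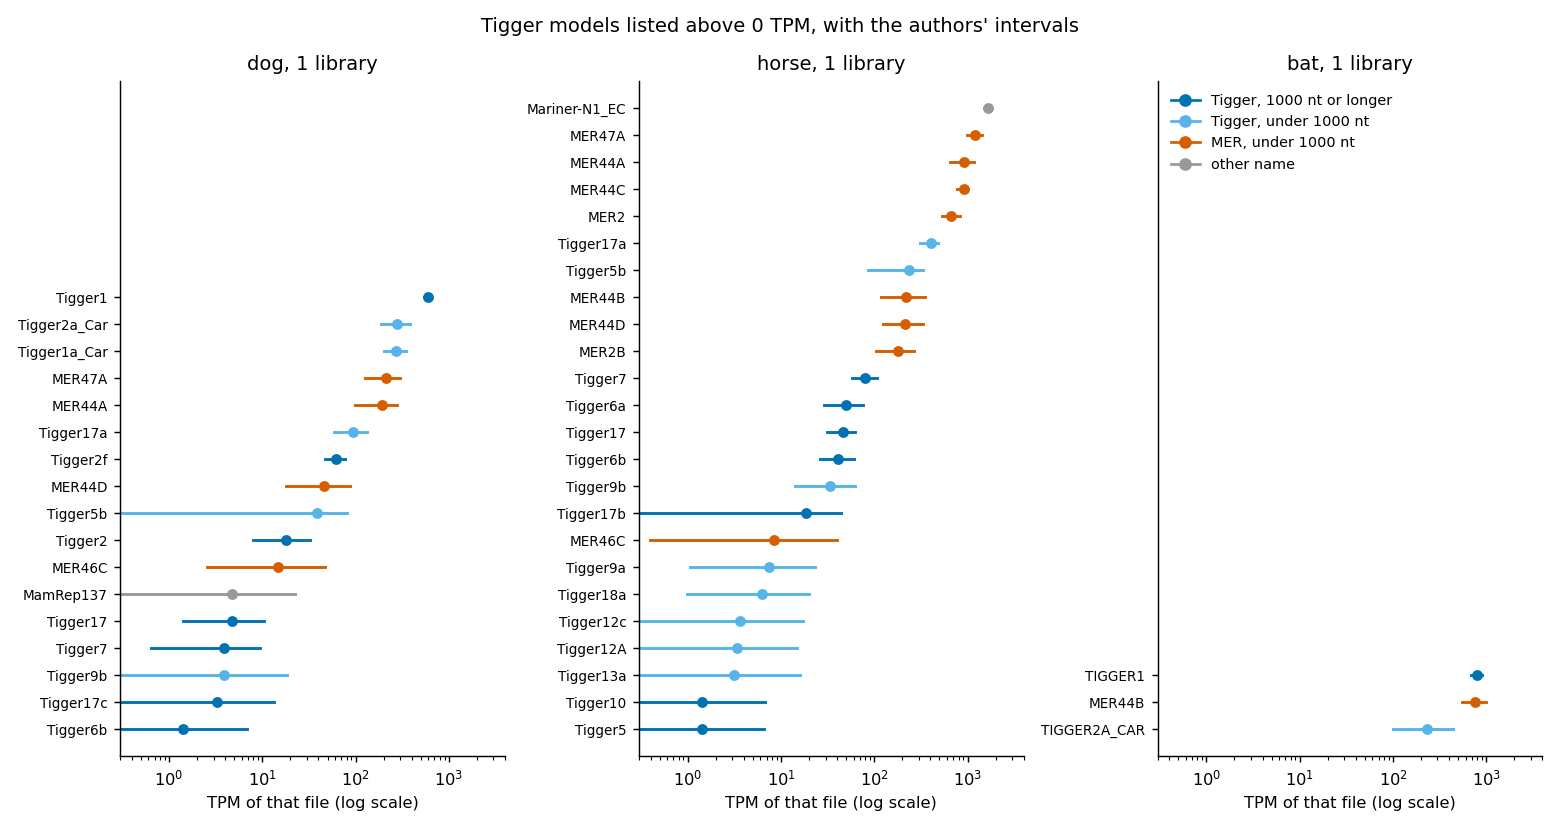
TPM of every Tigger model listed above 0 in the dog, horse and bat mRNA libraries (log axis), with the authors' interval as a line that is clipped at the left edge of the axis. Colours give the kind of model; Tigger1 leads in dog at 594 TPM, Mariner-N1_EC in horse at 1676 TPM and TIGGER1 in bat at 794 TPM, each on its own file's scale.

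In dog a single long model stood far above the rest. Tigger1, of 2418 nt, the model of an autonomous element, was at 594 TPM (authors' interval 543 to 637) with 612 rebuilt reads, which was 65.4% of the Tigger reads (62.2 to 68.4%). It ranked first of all DNA transposon models in dog by TPM and by reads, and 25th of the 682 element models by reads. Next by reads came Tigger2f, the longest member at 3455 nt, with 92.04 reads and 62.3 TPM (47.3 to 76.4). Tigger2, of 2718 nt, held 21.1 reads at 18.2 TPM (7.99 to 32.7). Together these 3 long models account for nearly all of the 738 reads on long models in dog. The other long models were at 4.71 TPM or lower, and 5 of the 12 were listed at 0, with upper bounds of at most 9.56 TPM.

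The short carnivore models were the next highest in dog by TPM. Tigger2a_Car, of 341 nt, was at 281 TPM (189 to 382) and Tigger1a_Car, of 471 nt, at 271 TPM (200.3 to 351), with 38.3 and 52.2 reads. Their intervals overlapped each other and lay below that of Tigger1. Per length Tigger1a_Car stood at 0.456 of Tigger1 (0.336 to 0.605), whereas Tigger2a_Car stood above its long relatives, at 4.51 times Tigger2f (2.98 to 6.59) and 15.5 times Tigger2 (8.80 to 27.6). The short form was thus the lower one in the Tigger1 pair and the higher one in the Tigger2 pairs. With their long relatives, the Tigger1 models held 71.0% of the Tigger reads in dog and the 3 Tigger2 models 16.2%.

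MER-named models held 7.82% of all Tigger reads in dog. MER47A (366 nt) was at 214 TPM (126 to 300.5) with 31.5 reads, and MER44A (339 nt) at 194 TPM (99.7 to 279) with 26.2 reads. MER44D (705 nt) followed at 46.2 TPM (17.9 to 87.2), and MER46C had 2 reads. The remaining 7 MER-named models, MER2, MER44B and MER44C among them, were listed at 0. Per length, Tigger1 was 2.78 times as high as MER47A (1.97 to 4.19), while MER47A and MER44A did not differ beyond counting error (ratio 1.10, 0.631 to 1.93).

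In horse, MER-named models and a horse model were at the top by TPM, with long Tigger models well below. In dog, too, MER47A and MER44A stood above every long model but Tigger1, which the horse file does not hold. Mariner-N1_EC, of 780 nt, was at 1676 TPM (1516 to 1811) with 484 reads, 31.6% of the Tigger reads (29.2 to 33.9%). It ranked first of all horse DNA transposon models by TPM and by reads. Its name says mariner, but the file classes it as Tigger, and no sequence was used here to decide between them. MER47A was at 1208 TPM (993 to 1432), MER44A at 923 TPM (645 to 1160), MER44C at 911 TPM (769 to 1022) and MER2 at 671 TPM (528 to 822). The authors' intervals of MER47A, MER44A and MER44C overlapped, that of MER2 overlapped MER44A and MER44C, and that of Mariner-N1_EC lay above all of them.

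Long Tigger models in horse lay between 1.41 and 80.04 TPM where they were listed above 0. Tigger7, of 2491 nt, led with 80.04 TPM (57.1 to 107) and 75.5 reads. Tigger6a was at 49.7 TPM (28.95 to 75.2), Tigger17 at 46.6 TPM (31.2 to 61.8) and Tigger6b at 41.1 TPM (26.0 to 60.2), and these 4 intervals overlapped. Tigger17b followed at 18.6 TPM, with an interval from 0.0479 to 44.2. Tigger5 and Tigger10 held about 1 read each, and Tigger12 and Tigger17c were listed at 0. The highest long model in horse therefore stood below 10 shorter models of the same file by TPM.

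**Figure D2:**
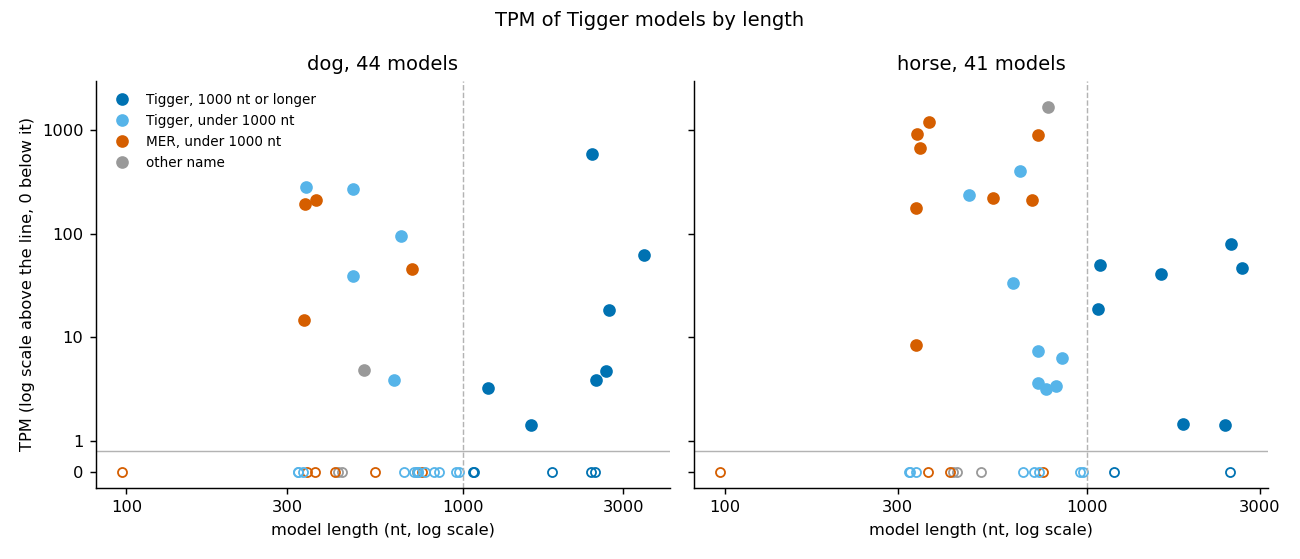
TPM of the 44 dog and 41 horse Tigger models (log axis, with models listed at 0 as open circles under the line) against model length in nt (log axis), with a dashed line at 1000 nt. In dog the highest point is the long model Tigger1, while in horse all points above 100 TPM are models under 1000 nt.

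Set side by side as kinds, long models held most Tigger reads in dog and few in horse. In dog, 78.8% of Tigger reads fell on long models (76.0 to 81.3%), whereas in horse 11.6% did (9.98 to 13.2%). Short MER-named models took 7.82% in dog (6.16 to 9.70%) and 47.0% in horse (44.4 to 49.5%). Short Tigger-named models took 13.3% and 9.90%. As parts of the summed TPM, which counts a short model's reads for more, long models stood at 37.2% in dog and 3.44% in horse, and MER-named models at 25.3% and 62.4%. In dog the long share rests on Tigger1: without it, long models held 38.6% of the reads. It also rests on the models held, since over the 39 models in both files long models took 10.04% of Tigger reads in dog and 17.2% in horse. Over these 39 models the MER-named kind held 60.8% in dog (51.5 to 69.6%) and 68.0% in horse (65.05 to 70.8%), intervals that overlap.

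The medians of the kinds gave a different picture in dog from the leading models. Over all models the median was 2.33 TPM for the 12 long models and 0 for the 11 MER-named models in dog. In horse it was 18.6 TPM for the 9 long models and 196 TPM for the 12 MER-named models. Over models with a read alone, MER-named models were higher in both species, at 120 against 4.71 TPM in dog (4 and 7 models) and 446 against 41.07 TPM in horse (8 and 7 models). Asking for a read favours short models here, since a read on them is worth more TPM. In dog 2 reads put MER46C at 14.8 TPM, and about 1 read put Tigger6b at 1.41 TPM. The order in dog thus turned with the models listed at 0, and in horse it did not. In horse it turned where all 32 models under 1000 nt formed one kind, at a median of 3.27 TPM, since most short Tigger-named models were low. Models of a kind are no replicates, and these medians describe the models of 1 library each.

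**Figure D3:**
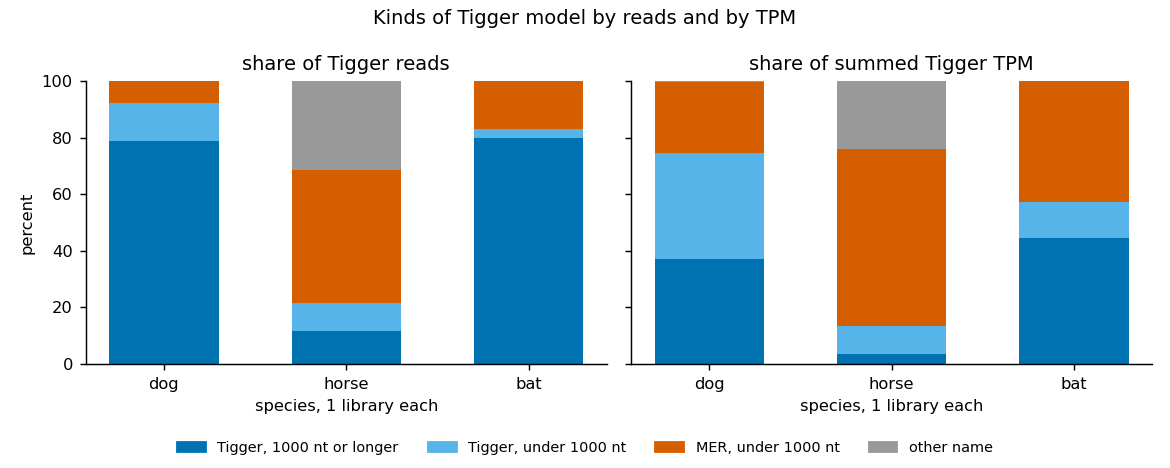
Stacked bars of the share of Tigger reads (left) and of summed Tigger TPM (right), in percent, by kind of model in the dog, horse and bat libraries. Long models hold 78.8% of the reads in dog, 11.6% in horse and 79.9% in bat, where they are the single model TIGGER1.

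Within numbered families, the short models were above their long relatives in most pairs that could be measured. Tigger17a (654 nt) was at 94.3 TPM in dog and 402 TPM in horse, against 4.71 and 46.6 TPM for Tigger17 (2673 nt). The short model was thus 20.03 times as high as the long one in dog (8.26 to 72.9) and in horse 8.62 times (6.06 to 12.6), and these intervals overlap. In horse Tigger17a was also 21.5 times as high as Tigger17b (10.8 to 58.9). Tigger17b rested on 7.47 reads there, and its authors' interval went down to 0.0479 TPM. The ratio intervals cover counting error only. Tigger5b (472 nt) was at 237 TPM in horse against 1.41 TPM for Tigger5 (2406 nt), but its own interval was wide, from 84.7 to 337 TPM. Tigger6a and Tigger6b, both long, did not differ beyond counting error in horse (ratio 1.21, 0.626 to 2.23). Among the pairs of a short and a long model given here, the Tigger1 pair of dog was the one in which the long model was higher.

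The MER44 models, 4 short elements with a shared name, kept part of their order across species. In horse, where all 4 had reads, MER44A (923 TPM) and MER44C (911 TPM) stood about equally above MER44B (221 TPM, 117 to 352) and MER44D (214 TPM, 123 to 331). MER44A was 4.32 times as high as MER44D in horse (3.08 to 6.02), and dog gave 4.19 times (2.02 to 8.32). The 2 estimates were close, but the dog interval is wide, with 13.5 reads on MER44D. In horse the authors' intervals of MER44A and MER44D were 1.46 and 1.79 times as wide as counting error, which the ratio interval leaves out. MER44C and MER44B broke the order, being listed at 0 in dog with upper bounds of 13.1 and 24.7 TPM. As a group, MER44 models took 29.9% of Tigger reads in horse (27.6 to 32.2%) and 4.25% in dog (3.07 to 5.77%). These shares rest on unlike sets of models. Those held by the dog file alone took 87.1% of its Tigger reads, and those held by the horse file alone 33.0%. The MER2 models of horse differed as well, with MER2 at 3.78 times MER2B (2.33 to 6.46).

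Most element families were at a higher TPM in horse than in dog, so the Tigger families have to be read against that. Of the 39 Tigger models in both files, 12 had at least 10 reads in dog or horse, and all 12 were at least 2-fold higher in horse on the log2(TPM + 1) scale. The background was high: among the 149 element families named alike with as many reads, 94.6% were at least 2-fold higher in horse and 0.671% in dog. On the scale of element reads, which lowers every horse value by 0.93 on the log2 scale, all 12 were again past 2-fold, against 82.6% of the 149 (1.34% were as far higher in dog). The median difference was 3.55 (log2) for the Tigger families and 2.73 for all families. The 8 Tigger families that had 10 reads in horse alone had to differ, so this median supports nothing about the group.

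Over the 4 Tigger families with at least 10 reads in both libraries, the median difference was close to that of other elements. Their median was 2.22 on the log2 scale, against 2.35 for the 63 element families with as many reads in both. This limit leaves out families that are low in dog, and none of the 4 is a long model, so it does not speak for the other Tigger families. The TPM ratio of horse to dog was 5.65 for MER47A (3.89 to 8.73), 4.77 for MER44A (3.12 to 7.68), 4.63 for MER44D (2.48 to 8.76) and 4.26 for Tigger17a (2.70 to 6.75). These 4 intervals overlapped. As shares of element reads the ratios were smaller, from 2.98 for MER47A to 2.24 for Tigger17a.

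**Figure D4:**
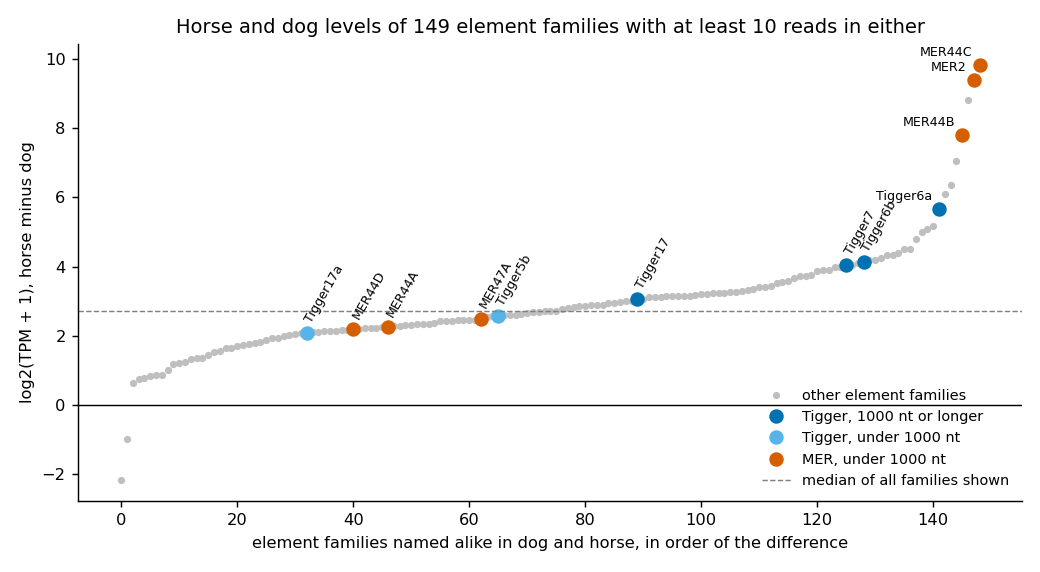
Difference in log2(TPM + 1), horse minus dog, for the 149 element families named alike with at least 10 reads in either library, in order of the difference. The 12 Tigger families are coloured by kind and run from 2.08 (Tigger17a) to 9.83 (MER44C), around a median of 2.73 over all families (dashed line).

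Among the 12 families compared, those farthest above the common shift were at or near 0 in dog. Those named here passed the limit of 10 reads in horse alone, so a large difference was built into their choice. Their values describe single families and support nothing about the group. MER44C was at 911 TPM in horse, with a lower bound of 769, and was listed at 0 in dog with an upper bound of 13.1. MER2 was at 671 TPM against 0 in dog (upper bound 21.5), and Tigger6a at 49.7 TPM against 0 (upper bound 6.52). Among models with a read in both, Tigger6b was at 41.1 TPM in horse and 1.41 in dog on 24.7 reads and 1 read, a ratio of 29.1 with an interval from 4.61 to 1156. Tigger7 was at 80.04 and 3.90 TPM, a ratio of 20.52 (7.91 to 79.5), and Tigger17 at 46.6 and 4.71 TPM, a ratio of 9.90 (4.23 to 34.1). The authors' intervals did not overlap for 12 of the 39 shared models, each time with horse higher, against 24.7% of the 576 element families named alike. No shared Tigger model lay the other way, against 0.347% of these families.

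Summed over the 39 shared models, Tigger TPM was 8.17 times as high in horse as in dog, with 5090 against 623 TPM. Over all 576 shared element families this ratio was 6.59, and over the other 161 shared DNA transposon models 6.66. Among the kinds it was 18.02 for long models, 8.88 for MER-named models and 5.07 for short Tigger-named models, where the long models in dog rest on 12.1 reads. As a share of all element reads, the shared Tigger models stood 5.06 times as high in horse as in dog (4.20 to 6.19). Over all shared families this ratio was 3.08 (2.98 to 3.19). It was 1.16 for the other shared DNA transposons (1.04 to 1.29) and 0.9702 for hAT-Charlie among them (0.862 to 1.09). By summed TPM hAT-Charlie stood at 6.29, so the distance of Tigger from other DNA transposons depended on the measure. The read ratio of hAT-Charlie also leaned on single models. Charlie9 held 184 of the 457 hAT-Charlie reads in dog, at 157 TPM there and 78.5 TPM in horse. Charlie10 was at 121 TPM in dog and 26.2 TPM in horse. Of the 66 shared hAT-Charlie models, 31 were higher in horse and 4 in dog. The 5 models held by the dog file alone had 816 reads, 87.1% of the Tigger reads of dog, and the 2 held by the horse file alone had 505 reads, 33.0% of those of horse.

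Of the 39 shared models, 10 had a read in both libraries, 12 in horse alone, 2 in dog alone and 15 in neither. Those in dog alone were Tigger17c, with 1.62 rebuilt reads, and MamRep137, with 1 read, so that no order can be read from them. The silent 15 included Tigger8, Tigger11a, Tigger12, both Tigger16 models, Tigger19a, Tigger20a, MER47B, MER127 and UCON11. Their upper bounds went up to 94.8 TPM in dog and 107 TPM in horse, in both cases for MER47C, which at 97 nt is the shortest member. For long silent models the bound was tighter, at 2.78 TPM in dog and 3.82 TPM in horse for Tigger12. Across the 10 models with a read in both, the order of TPM was alike (Spearman's rho 0.842), a description over models that share both libraries. Over the 24 models with a read in either library rho was 0.420, so the likeness was weaker once models seen in 1 library were kept.

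Some members had intervals wider than counting error. In dog, Tigger5b had 7.51 rebuilt reads and an authors' interval from 0.00161 to 80.7 TPM, far wider downward than the 16.3 to 78.3 TPM that counting error alone would give. In horse the authors' interval was over 1.5 times the width of counting error for MER44D, MER44B and Tigger5b, at 1.79, 1.74 and 1.66 times. For Tigger1 in dog and Mariner-N1_EC in horse the widths were 0.988 and 0.979 times those of counting error. Other leading members had some added width, at 1.46 times for MER44A and 1.14 times for MER47A in horse and 1.11 times for Tigger2f in dog. The part of reads shared between models in this was not tested.

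Bat had few members, and its long model led. TIGGER1, of 2400 nt, held 204 expected counts at 794 TPM (681 to 896), MER44B (550 nt) held 43.3 at 762 TPM (551 to 1002), and TIGGER2A_CAR (341 nt) held 7.89 at 230.2 TPM (99.9 to 435). Per length TIGGER1 and MER44B did not differ beyond counting error (ratio 1.04, 0.753 to 1.496). The members made up 0.456% of element reads in bat (0.402 to 0.516%). They took 1.75% of the reads on models that the bat file classes as DNA transposons, Helitrons left out. TIGGER1 ranked 14th by reads among those models, whereas Tigger1 ranked first in dog. The bat classes put MLUC.HAL1-1A_ML, with 2248 expected counts, under hAT, while the dog and horse files class HAL1 as an L1 LINE. The bat share and rank depend on that label.

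The proportion of the Tigger1 and Tigger2a_Car models could be set side by side within dog and within bat. TIGGER1 was 3.45 times as high as TIGGER2A_CAR in bat (1.69 to 7.99), and Tigger1 2.12 times as high as Tigger2a_Car in dog (1.54 to 3.04). The long model was the higher one in both libraries and the intervals overlap, although the models came from different collections. MER44B was close to TIGGER1 in bat, at 221 TPM in horse and listed at 0 in dog (upper bound 24.7 TPM). Its bat level is on another scale and gives no order against dog or horse. A further 3 bat models with Tigger later in the name, outside the rule used here, held 2.75 expected counts together.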

How the data were processed

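The mRNA libraries of dog, horse and bat testis were used, 1 per species; the small RNA files were not used here, since no element sequence was held to place their reads. Bowtie, RSEM and CanFam3.1 are named for each sample in the submitters' processing notes, without versions, and the source of the repeat models is not given there. TPM and its interval bounds (a signal in TPM units whose level is not stated) are the authors' values, per the file headers, and so are the expected counts of bat. For dog and horse, reads were rebuilt as TPM times (length minus 24 nt) over the commonest product below 5000, taken as 1 read. In bat, where counts were deposited, the same rule with a higher limit for the product came within 0.0614% for the 269 models with at least 10 expected counts. Of the models of at most 20 reads, 53.7% in dog and 51.4% in horse were within 0.05 of a whole number, so no count test was run. With 1 library a group no test was possible. Intervals are exact 95% ones (Clopper-Pearson for shares, conditional for ratios) on rounded reads and cover counting error only, since reads had no molecular identifiers. A floor of 3 reads is 0.00289% of element reads in dog, 0.00172% in horse and 0.00537% in bat. Elements were the LINE, SINE, LTR, DNA and RC classes without 7SLRNA. Species differences used log2(TPM + 1), which understates the change of low models. Models named were those with at least 10 reads (up to 10 per species), the highest of each kind, families entering the species comparison and all bat members; further models are named to account for every member. The members, kinds and lists were chosen with earlier results of these data known. The code was tested on simulated data. Python 3.11.15, pandas 2.3.3 and scipy 1.17.1 were used.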

Additional observations from a re-analysis of the deposited data

How the results depend on the processing

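No paired analysis was possible because each group held 1 library. Settings restricted to models in both files or without a leading model (for the share of DNA transposon reads and in bat) were chosen after seeing the data. The Tigger share of element reads moved, with TPM in place of reads, to 0.405% in dog and 1.41% in horse, since TPM weighs short models more. With all models as the denominator it was 0.138% and 0.230%, and over models in both files 3.05% and 5.01%. A length offset of 25 or 0 nt left it within its counting interval.

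The difference in median TPM (MER-named minus long) was -2.33 in dog. It reversed to 115 with at least 1 read and 131 with at least 10 reads, since models at 0 then drop out. It was -3.90 with long from 1500 nt, and 0 with long from 500 nt, by name alone and over models in both files. In horse it was 177. By length alone it reversed to -15.4, because short Tigger-named models then join the short kind. It was 89.5 with long from 500 nt, 405 with at least 1 read and 623 with at least 10.

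The long share of Tigger reads in dog was 81.6% with long from 500 nt, 37.2% by TPM, 38.6% without Tigger1 and 10.04% over models in both files. In horse it was 18.8% with long from 500 nt, 9.76% from 1500 nt, 3.44% by TPM, 16.9% without Mariner-N1_EC and 17.2% over models in both files. The Tigger share of DNA transposon reads was 18.4% in dog and 49.5% in horse over models in both files, and 37.7% and 50.02% without the leading model. In dog it was thus no longer the leading group there.

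The number of Tigger families higher in horse was 21 of 24 with at least 1 read, with 2 higher in dog, and 4 of 4 with at least 10 reads in both. It stayed at 12 under the other scale, both pseudocounts and a fold of 4. The median log2 difference was 2.65 by element share, 2.53 with at least 1 read, 2.22 with at least 10 in both and 2.39 with a pseudocount of 10 TPM. The median over all families moved alongside, to 1.80, 2.60, 2.35 and 2.06. The bat share was 0.179% by TPM, 0.383% for the 5 models with Tigger anywhere in the name and 0.0916% without TIGGER1. Depth limits all models under 10 reads, whose intervals span several-fold.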
